A study of Mus musculus with 9 samples.

Results

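The mRNAs of 69 splicing factor genes were followed in C2C12 cells, a mouse myoblast line, after the loss of 1 of 2 other splicing regulators and after a block of transcription. The genes were taken by symbol: SR proteins (Srsf), Tra2 proteins, hnRNP proteins (Hnrnp), polypyrimidine tract-binding proteins (Ptbp), Rbfox proteins, snRNP proteins (Snrp), the SF3a and SF3b subunits, U2AF and the Prpf proteins. They accounted for 92 of the 35556 probe sets on the array, a probe set being a group of probes read out as 1 value, and for 92 of the 21789 probe sets annotated with a single symbol. Of the 69 genes, 66 had a mean intensity at or above 167.1 and were tested with all 9864 genes that did. The other 3, Rbfox1, Rbfox3 and Srsf12, had mean intensities of 68.3, 72.1 and 49.6 and were not tested. Each gene was read from its brightest probe set, the only one for 55 of the 69 genes. A further 18 probe sets carry several symbols, of which 1 matches the same symbols, and were not counted as members because they cannot be assigned to a single gene.

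Cells had received siRNA to Mbnl1, siRNA to Cugbp1 (the older symbol of Celf1) or a control siRNA. In every arm transcription was then stopped with 5 ug/ml actinomycin D, and RNA of whole cultures was taken 0, 2.5 and 5 h later. Every pairing of siRNA and time, 9 in all, was measured on 1 Affymetrix whole-transcript array, so the arm of each siRNA holds 3 arrays and no pairing has a replicate. The study asks how the 2 proteins affect mRNA decay.

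Pre-mRNA splicing is carried out by the spliceosome, which assembles on each intron from small nuclear ribonucleoproteins (snRNPs) and many further proteins. Each snRNP is an snRNA with a ring of Sm proteins (Lsm proteins in U6) and proteins of its own. U1 recognises the 5′ splice site, U2AF and then U2 with its SF3a and SF3b subunits recognise the branch site and 3′ splice site, and the U4/U6.U5 tri-snRNP brings in the catalytic core. SR proteins mostly favour and hnRNP and PTB proteins often oppose the use of a site, and their balance sets which exons are kept. Mbnl1 and Celf1 are themselves regulators of splicing and mRNA stability in muscle, known for their part in myotonic dystrophy.

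Array medians lay between 104.9 and 113 and any 2 arrays correlated with r between 0.9799 and 0.9954 across probe sets. Celf1 stood at 30.9%, 22.1% and 21.6% of its control siRNA level at 0, 2.5 and 5 h under Cugbp1 siRNA, and Mbnl1 at 22.0%, 18.3% and 15.9% under Mbnl1 siRNA. Of 7 myoblast markers, 6 passed the intensity filter, with Myog, a marker of differentiation, below it. Of 5 adipocyte, 5 macrophage or leukocyte and 4 epithelial markers, 1, 1 and 2 passed. In RNA from whole cultures, fewer cells of a type and less RNA per cell cannot be told apart. Levels are RMA intensities on a linear scale, on which the array as a whole is held constant. A change is therefore relative to the other transcripts, and whether a positive change after actinomycin D is a smaller loss than that of other transcripts or a gain cannot be told apart on this scale. A gene was called where the adjusted p of the limma model (siRNA and time as factors, Benjamini-Hochberg over 9864 genes) was under 0.05. That p sets an effect against the variation between arrays that the 2 factors leave unexplained, because there are no replicate cultures.

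Most splicing factor mRNAs changed little during the 5 h without transcription, and a few fell by far more than the rest. At 5 h against 0 h Prpf4 fell by 1.01, Srsf4 fell by 0.74 and Prpf3 fell by 0.60 on the log2 scale, and 9 further members fell. Relative to the array, 23 of the 66 members were higher, among them 6 of the 10 Snrp genes. The background is large: of all 9864 genes, 35.6% were higher and 32.8% lower at 5 h. The members' share of higher calls, 34.8%, was near that background, and their share of lower calls, 18.2%, was below it. A difference under 0.25 in size was found for 52 members, or 78.8%, against 60.9% of all genes. The median difference was 0.026 over the members and 0.035 over all genes tested. In 20 members the 5 h array was below the 0 h array in all 3 arms, against 36.1% of all genes.

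When the arrays were instead set to equal medians of 52 ribosomal protein mRNAs, which are long-lived, the differences of all genes shifted by -0.234 at 5 h, -0.107 at 2.5 h, -0.022 for Cugbp1 siRNA against control siRNA and 0.001 for Mbnl1 siRNA against control siRNA. On that scale the 12 falls at 5 h were all called again. In all 44 members were lower and 3 (Snrpd2, Snrpe and U2af1l4) were higher, counts that lie near the background there, 59.4% lower and 2.85% higher among all genes. The sign turned for 15 of the 23 members higher at 5 h and for Ptbp3 at 2.5 h. Of the 12 falls, 10 kept their call under all alternatives in which they were tested, with Prpf6 and Prpf18 as the exceptions. Of the 23 members higher at 5 h, 3 did so. Whichever array was left out, 15 of the 23 higher calls and 11 of the 12 falls were kept.

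**Figure D1:**
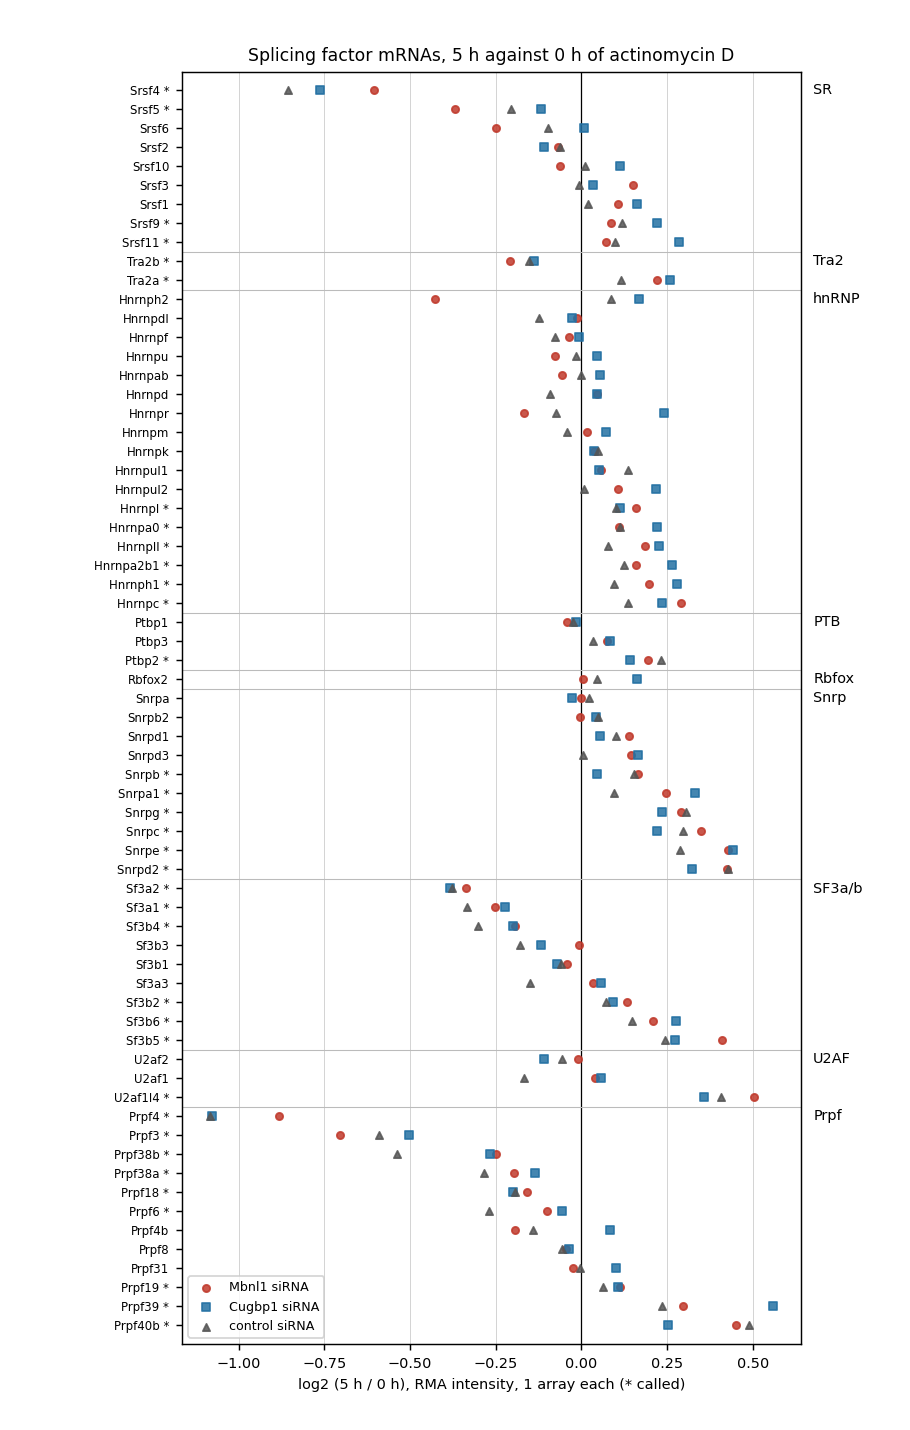
Log2 ratio of the 5 h to the 0 h array (x axis) for each of the 66 splicing factor genes (y axis, grouped by role and ordered within it by the fitted difference), with 1 point for each siRNA arm and a star for genes called in the limma fit. Prpf4, Srsf4 and Prpf3 lie far to the left in every arm, where 47.2% to 70.6% of the 0 h value was left at 5 h.

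The Prpf proteins held the largest fall and some of the largest relative rises. Of 12 tested, 6 were lower and 3 higher at 5 h, against 32.8% and 35.6% of all genes, with a median of -0.113. Prpf4, which joins Prpf3 in the U4/U6 snRNP, had intensities of 859, 705 and 466 at 0, 2.5 and 5 h under Mbnl1 siRNA, 919, 680.1 and 435 under Cugbp1 siRNA, and 1049, 712 and 496 under control siRNA. In each arm the 3 times were in falling order, and the 5 h arrays of all arms were below every array of the earlier times. The fitted difference was -1.01 (SE 0.055, limma adjusted p = 2.14e-06), which leaves 54.3% of the 0 h value under Mbnl1 siRNA, 47.4% under Cugbp1 siRNA and 47.2% under control siRNA. Among all 9864 genes, those whose log2 values were most like those of Prpf4 over the 9 arrays were Chst12, Map3k11, Unc50, Arid1a and Fam53c, with Pearson's r between 0.9858 and 0.9904. These correlations are a description over 9 arrays that share their normalization and the course of time.

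Prpf3, the partner of Prpf4, read 976, 777 and 599 at 0, 2.5 and 5 h under Mbnl1 siRNA, 1099, 937 and 776 under Cugbp1 siRNA, and 1065, 930.4 and 708 under control siRNA. It too fell in each arm at each step, and the fall amounted to -0.60 (SE 0.046, limma adjusted p = 1.45e-05). Prpf38b, related to the spliceosomal B complex protein Prpf38a, gave 1127, 1050 and 948 at 0, 2.5 and 5 h under Mbnl1 siRNA, 1062, 1033 and 883 under Cugbp1 siRNA, and 1182, 1049 and 815 under control siRNA. The control siRNA arm lost most, with 68.9% left at 5 h, against 84.1% under Mbnl1 siRNA and 83.2% under Cugbp1 siRNA. Its difference at 5 h was -0.35 (SE 0.059, limma adjusted p = 0.00106). Prpf38a, Prpf18, a factor of the second catalytic step, and Prpf6, which bridges the tri-snRNP, differed by -0.205, -0.184 and -0.143, all called, with the call of Prpf6 lost under 5 of 15 alternatives and that of Prpf18 under a second quantile normalization.

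Prpf40b and Prpf39, whose yeast counterparts belong to the U1 snRNP, moved the other way relative to the array. Prpf40b had intensities of 153, 206 and 209.5 at 0, 2.5 and 5 h under Mbnl1 siRNA, 204, 249 and 244 under Cugbp1 siRNA, and 172, 209.5 and 242 under control siRNA. All 6 later arrays were above the 0 h arrays of all arms. Its difference at 5 h was 0.40 (SE 0.056, limma adjusted p = 0.000445). Prpf39 read 259, 328 and 318 at 0, 2.5 and 5 h under Mbnl1 siRNA, 259, 357 and 382 under Cugbp1 siRNA, and 293, 345 and 345 under control siRNA. The later arrays of each arm were above its 0 h array, by most under Cugbp1 siRNA, and the 5 h difference was 0.36 (SE 0.061, limma adjusted p = 0.00109). With equal ribosomal protein medians both stayed positive and were not called, at 0.16 and 0.13. Prpf19, the ubiquitin ligase at the core of the complex that carries its name, was the third Prpf gene called higher, by 0.094, and its sign turned to -0.14 with equal ribosomal protein medians and its call was lost whichever array was left out.

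**Figure D2:**
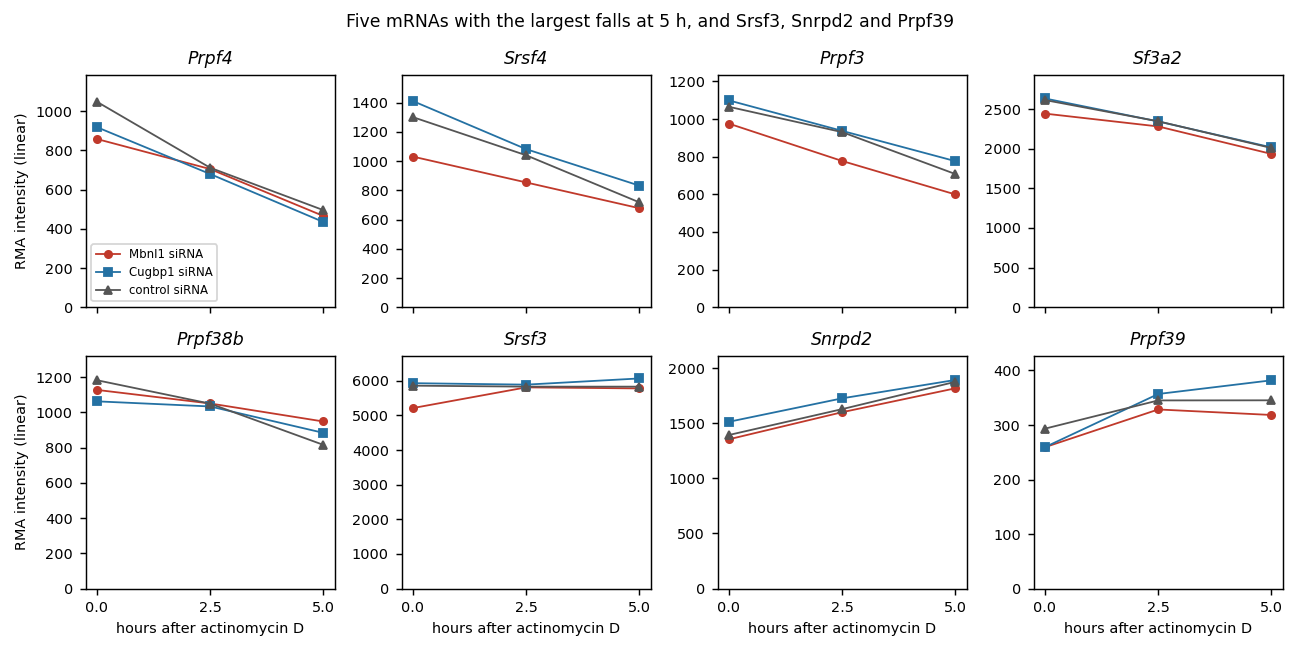
RMA intensity (y axis, linear, from 0) at 0, 2.5 and 5 h after actinomycin D (x axis) for 8 splicing factor genes, with 1 point per array and 1 line per siRNA arm. The first 5 panels are the members with the largest falls at 5 h, Prpf4 to Prpf38b; Srsf3 stays nearly level after 2.5 h, and Snrpd2 and Prpf39 end above their 0 h arrays in all arms.

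The SR proteins did not move together over time. Of 9 tested, 2 were lower and 2 higher at 5 h, against 32.8% and 35.6% of all genes, with a median of 0.021. Srsf4, one of the longest SR proteins, had intensities of 1031, 854 and 678 at 0, 2.5 and 5 h under Mbnl1 siRNA, 1411, 1082 and 832 under Cugbp1 siRNA, and 1301, 1040 and 718 under control siRNA. It fell at each step in each arm, and 65.7% of the 0 h value was left at 5 h under Mbnl1 siRNA, 59.0% under Cugbp1 siRNA and 55.2% under control siRNA. The fitted difference was -0.74 (SE 0.052, limma adjusted p = 8.96e-06). Srsf5, an SR protein also known as a growth-response gene of liver, read 882, 769.7 and 684 at 0, 2.5 and 5 h under Mbnl1 siRNA, 959, 964 and 882 under Cugbp1 siRNA, and 976, 907 and 847 under control siRNA. Its difference at 5 h was -0.23 (SE 0.051, limma adjusted p = 0.00449), and its fall was deepest under Mbnl1 siRNA, where 77.5% was left, against 92.1% under Cugbp1 siRNA and 86.8% under control siRNA.

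Srsf11 and Srsf9 were the 2 SR genes called higher at 5 h, and both turned sign with equal ribosomal protein medians, to -0.083 and -0.092. Their calls were lost under 5 and 3 of 15 alternatives, also when the Cugbp1 siRNA array at 0 or at 5 h was left out. Srsf11, a distant member of the family, had intensities of 1064, 1196 and 1117 at 0, 2.5 and 5 h under Mbnl1 siRNA, 1039, 1207 and 1265 under Cugbp1 siRNA, and 1094, 1151 and 1172 under control siRNA. The arms overlapped, and the 5 h array was above the 0 h array in each, with a difference of 0.15 (SE 0.050, limma adjusted p = 0.0271). Srsf9, a small SR protein, read 1899, 1965 and 2017 at 0, 2.5 and 5 h under Mbnl1 siRNA, 2210, 2342 and 2576 under Cugbp1 siRNA, and 2207, 2285 and 2395 under control siRNA, for a difference of 0.14 (SE 0.038, limma adjusted p = 0.0116). In each of its arms the 3 times were in rising order.

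The other 5 SR genes were not called at 5 h against 0 h. Srsf1, the founding member of the family, read 2410, 2578 and 2596 at 0, 2.5 and 5 h under Mbnl1 siRNA, 2813, 3113 and 3149 under Cugbp1 siRNA, and 2954, 3133 and 2996 under control siRNA, and was called at 2.5 h with a difference of 0.11 (SE 0.039, limma adjusted p = 0.0481). That call was lost under 11 of 15 alternatives, with adjusted p between 0.0151 and 0.983 in limma. Srsf2, a nuclear speckle protein, gave 5842, 6015 and 5569 at 0, 2.5 and 5 h under Mbnl1 siRNA, 6106, 6114 and 5661 under Cugbp1 siRNA, and 6274, 6618 and 6006 under control siRNA. Its 5 h array was the lowest of each arm, and it was lower at 5 h than at 2.5 h by -0.12 (SE 0.034, limma adjusted p = 0.0407), a call lost under 8 of 15 alternatives, 7 of them with 1 array left out. Srsf3, the smallest SR protein, had intensities of 5214, 5812 and 5782 at 0, 2.5 and 5 h under Mbnl1 siRNA, 5933, 5891 and 6070 under Cugbp1 siRNA, and 5861, 5833 and 5833 under control siRNA. Apart from the 0 h array under Mbnl1 siRNA, these 9 values lay close together. Srsf6 read 1893, 1755 and 1594 at 0, 2.5 and 5 h under Mbnl1 siRNA, 1887, 1959 and 1898 under Cugbp1 siRNA, and 2012, 2014 and 1879 under control siRNA. Srsf10, a splicing repressor when dephosphorylated, gave 3242, 3137 and 3107 at 0, 2.5 and 5 h under Mbnl1 siRNA, 3732, 3691 and 4036 under Cugbp1 siRNA, and 3855, 3753 and 3882 under control siRNA. Neither had a called change over time: the 3 times of Srsf6 were in falling order in the Mbnl1 siRNA arm alone, and those of Srsf10 lay close together in each arm.

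The Tra2 proteins, which bind GA-rich exon enhancers, went opposite ways. Tra2b had intensities of 4377, 3974 and 3790 at 0, 2.5 and 5 h under Mbnl1 siRNA, 4745, 4531 and 4307 under Cugbp1 siRNA, and 4797, 4603 and 4312 under control siRNA. In this brightest probe set it fell at each step in each arm, with a difference of -0.17 (SE 0.035, limma adjusted p = 0.00337). A dimmer probe set of Tra2b, of mean intensity 901, had a mean difference of -0.092. Under Cugbp1 siRNA that probe set read 895, 940 and 922 at 0, 2.5 and 5 h, without a fall from 0 h. Tra2a read 1656, 1878 and 1930 at 0, 2.5 and 5 h under Mbnl1 siRNA, 1878, 2051 and 2247 under Cugbp1 siRNA, and 1860, 1921 and 2016 under control siRNA, with the times in rising order in each arm and a difference of 0.20 (SE 0.042, limma adjusted p = 0.00331), which turned to -0.035 with equal ribosomal protein medians. Its 3 probe sets disagreed in size. The 2 dimmer ones had mean differences of 0.69 and 0.80, against 0.20 for the brightest, and the probe set of mean intensity 522 stood at 403, 631 and 587 at 0, 2.5 and 5 h under Mbnl1 siRNA, 360, 594 and 624 under Cugbp1 siRNA and 375, 631 and 617 under control siRNA. In that probe set most of the difference was present at 2.5 h in every arm.

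Of the 10 Snrp genes, 6 were higher and none lower at 5 h, against 35.6% and 32.8% of all genes. Their median was 0.172, the highest of the groups with more than 3 tested genes. The call of Snrpd2 and Snrpe held with equal ribosomal protein medians, whereas Snrpa1 and Snrpb turned sign on that scale. Snrpg and Snrpc stayed positive there, at 0.043 and 0.055, and were not called. Snrpd2, a protein of the Sm ring, had intensities of 1355, 1601 and 1818 at 0, 2.5 and 5 h under Mbnl1 siRNA, 1514, 1727 and 1894 under Cugbp1 siRNA, and 1394, 1629 and 1877 under control siRNA. The times were in rising order in each arm, with Cugbp1 siRNA highest and Mbnl1 siRNA lowest at each time. The difference was 0.39 (SE 0.037, limma adjusted p = 4.52e-05), and its 5 probe sets ranged between 0.39 and 0.48. Snrpe, also of the Sm ring, read 1527, 1687 and 2056 at 0, 2.5 and 5 h under Mbnl1 siRNA, 1614, 1950 and 2193 under Cugbp1 siRNA, and 1619, 1945 and 1975 under control siRNA. It too rose relative to the array at each step, by 0.39 (SE 0.052, limma adjusted p = 0.000348) over 5 h.

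Snrpg, a further Sm protein, had intensities of 1816, 2070 and 2222 at 0, 2.5 and 5 h under Mbnl1 siRNA, 2117, 2366 and 2491 under Cugbp1 siRNA, and 2028, 2442 and 2507 under control siRNA. The difference at 5 h was 0.28 (SE 0.037, limma adjusted p = 0.000309). The later arrays were above the 0 h array in every arm. Snrpa1, a U2 protein, read 899, 974 and 1067 at 0, 2.5 and 5 h under Mbnl1 siRNA, 1030, 1226 and 1294 under Cugbp1 siRNA, and 1086, 1156 and 1161 under control siRNA, and differed by 0.22 (SE 0.050, limma adjusted p = 0.00447). Snrpd1, the partner of Snrpd2 in the ring, gave 1683, 1776 and 1853 at 0, 2.5 and 5 h under Mbnl1 siRNA, 2059, 2245 and 2136 under Cugbp1 siRNA, and 1833, 2154 and 1965 under control siRNA. It was called at 2.5 h, at 0.145, a call lost under 8 of 15 alternatives, and not at 5 h, and its values at 5 h were below those at 2.5 h in the Cugbp1 and control siRNA arms.

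The SF3 subunits of the U2 snRNP split evenly, with 3 of 9 higher and 3 lower at 5 h and a median of -0.057. Among all genes 35.6% were higher and 32.8% lower. Sf3a2, of the SF3a trimer, had intensities of 2443, 2281 and 1934 at 0, 2.5 and 5 h under Mbnl1 siRNA, 2634, 2344 and 2017 under Cugbp1 siRNA, and 2614, 2346 and 2009 under control siRNA. It fell at each step in each arm, to between 76.6% and 79.2% of the 0 h array at 5 h, with a difference of -0.37 (SE 0.034, limma adjusted p = 4.26e-05). Sf3a1, which binds the other two subunits of the trimer, read 1536, 1413 and 1290 at 0, 2.5 and 5 h under Mbnl1 siRNA, 1642, 1574 and 1405 under Cugbp1 siRNA, and 1766, 1541 and 1401 under control siRNA. It also fell at each step in each arm, by -0.27 (SE 0.039, limma adjusted p = 0.000466). Sf3b4, which contacts pre-mRNA near the branch site, gave 799, 803 and 698 at 0, 2.5 and 5 h under Mbnl1 siRNA, 708, 716 and 617 under Cugbp1 siRNA, and 777, 716 and 631 under control siRNA. Its 5 h array was the lowest of each arm, and the difference was -0.23 (SE 0.040, limma adjusted p = 0.00124). A dimmer probe set of Sf3b4, of mean intensity 192, had a mean difference of -0.156 at 5 h against 0 h. In that probe set the 5 h array was above the 2.5 h array in every arm.

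Sf3b5, the smallest SF3b subunit, had intensities of 633, 724 and 840.5 at 0, 2.5 and 5 h under Mbnl1 siRNA, 719, 832 and 869 under Cugbp1 siRNA, and 724, 826 and 857 under control siRNA. The times were in rising order in each arm, and the difference was 0.31 (SE 0.044, limma adjusted p = 0.000468), which fell short of a call at 0.074 with equal ribosomal protein medians. Sf3b6, which lies next to the branch point adenosine, read 728, 700.4 and 841 at 0, 2.5 and 5 h under Mbnl1 siRNA, 721, 881 and 872 under Cugbp1 siRNA, and 699, 776 and 774 under control siRNA. Its 5 h difference of 0.21 (SE 0.066, limma adjusted p = 0.0218) turned to -0.024 on the ribosomal scale, and its call was also lost without the Mbnl1 siRNA array at 5 h, the control siRNA array at 0 h or the Cugbp1 siRNA array at 0 or 5 h. Sf3a3, the third SF3a subunit, gave 1612, 1674 and 1650 at 0, 2.5 and 5 h under Mbnl1 siRNA, 1819, 1971 and 1894 under Cugbp1 siRNA, and 1888, 1826 and 1704 under control siRNA, and was not called in any time contrast. Sf3b3, a large SF3b scaffold, had intensities of 2914, 3105 and 2898 at 0, 2.5 and 5 h under Mbnl1 siRNA, 3758, 3366 and 3467 under Cugbp1 siRNA, and 3740, 3364 and 3304 under control siRNA. Its 2.5 and 5 h arrays were below the 0 h array under Cugbp1 and control siRNA, but not at 2.5 h under Mbnl1 siRNA, and it was not called over time.

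U2af1l4, a paralog of the U2AF small subunit, had the largest relative rise of all members read from their brightest probe sets, 0.42 (SE 0.040, limma adjusted p = 4.9e-05). Dimmer probe sets of Tra2a, Snrpc and Snrpd2 differed by up to 0.80, 0.52 and 0.48. U2af1l4 kept its call with equal ribosomal protein medians, at 0.19. It had intensities of 421, 552 and 596 at 0, 2.5 and 5 h under Mbnl1 siRNA, 398, 479 and 509 under Cugbp1 siRNA, and 441, 538 and 585 under control siRNA. In each arm the times were in rising order. U2af1, the small subunit, which reads the 3′ splice site AG, gave 859.9, 859 and 884 at 0, 2.5 and 5 h under Mbnl1 siRNA, 989, 1017 and 1030 under Cugbp1 siRNA, and 919, 893 and 819 under control siRNA. It differed by -0.022 at 5 h against 0 h, and U2af2, the large subunit that binds the polypyrimidine tract, by -0.059, both without a call.

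Among hnRNP proteins 6 of 17 were higher at 5 h and none lower, against 35.6% and 32.8% of all genes, with a median of 0.041. All 6 turned sign with equal ribosomal protein medians. Hnrnpc, which binds uridine tracts, had intensities of 778, 845 and 951 at 0, 2.5 and 5 h under Mbnl1 siRNA, 922, 1067 and 1087 under Cugbp1 siRNA, and 964, 1139 and 1059 under control siRNA. The 5 h array was above the 0 h array in each arm, by 0.22 (SE 0.052, limma adjusted p = 0.0059) in the fit. Hnrnph1, a binder of G tracts, read 2638, 3072 and 3025 at 0, 2.5 and 5 h under Mbnl1 siRNA, 2946, 3250 and 3570 under Cugbp1 siRNA, and 3048, 3308 and 3254 under control siRNA, for a difference of 0.19 (SE 0.046, limma adjusted p = 0.00709). Hnrnpa2b1, an exon-silencing protein, gave 2921, 3150 and 3259 at 0, 2.5 and 5 h under Mbnl1 siRNA, 2965, 3439 and 3563 under Cugbp1 siRNA, and 3204, 3334 and 3488 under control siRNA, in rising order in each arm and with a difference of 0.18 (SE 0.041, limma adjusted p = 0.00506). The other 3 called were Hnrnpa0, Hnrnpl and Hnrnpll, with differences between 0.13 and 0.16, and the call of Hnrnpa0 was lost under 8 of 15 alternatives.

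Of the PTB proteins, Ptbp2, the form enriched in neurons, was called higher at 5 h. Its intensities were 1596, 1851 and 1826 at 0, 2.5 and 5 h under Mbnl1 siRNA, 1745, 1913 and 1926 under Cugbp1 siRNA, and 1758, 2020 and 2064 under control siRNA. All 6 later arrays were above the 0 h arrays of their arms, with a difference of 0.19 (SE 0.036, limma adjusted p = 0.00207), which turned to -0.045 with equal ribosomal protein medians. Ptbp1, the widely expressed form, read 6674, 6645 and 6483 at 0, 2.5 and 5 h under Mbnl1 siRNA, 7051, 7034 and 6976 under Cugbp1 siRNA, and 7144, 6976 and 7022 under control siRNA, and differed by -0.015 at 2.5 h and -0.027 at 5 h, without a call. Ptbp3 gave 5370, 5734 and 5655 at 0, 2.5 and 5 h under Mbnl1 siRNA, 5534, 5858 and 5858 under Cugbp1 siRNA, and 6057, 6586 and 6201 under control siRNA. It was called at 2.5 h, with a difference of 0.099 (SE 0.035, limma adjusted p = 0.0469), and its sign turned to -0.008 on the ribosomal scale; the call was lost under 12 of 15 alternatives, whichever array was left out. Rbfox2, a regulator of muscle exons that binds GCAUG and the only Rbfox gene tested, had intensities of 1860, 1853 and 1865 at 0, 2.5 and 5 h under Mbnl1 siRNA, 1808, 1865 and 2021 under Cugbp1 siRNA, and 1865, 1859 and 1925 under control siRNA. Those 9 values overlapped between times and arms, and no contrast called it.

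At 2.5 h against 0 h, 18 members were higher and 6 lower, against 23.1% and 24.2% of all genes, or 27.3% and 9.09% of the members. Of the 18 members higher at 2.5 h, 15 were also called higher at 5 h, and all 6 that were lower at 2.5 h (Prpf4, Srsf4, Prpf3, Sf3a2, Sf3a1 and Prpf18) were lower at 5 h. These 2 contrasts share the 0 h arrays. The counts at 2.5 h were 7 higher and 3 lower without the control siRNA array at 2.5 h, and 10 higher and 3 lower without the Cugbp1 siRNA array at 2.5 h. They were 9 higher without the Mbnl1 or the Cugbp1 siRNA array at 0 h, 11 higher without the Mbnl1 siRNA array at 2.5 h, and 8 higher without the intensity filter. With equal ribosomal protein medians they were 3 higher and 13 lower, against 2.41% and 32.8% of all genes. Prpf4, Srsf4 and Prpf3, and on the higher side Prpf39, Prpf40b and U2af1l4, kept their calls under all alternatives in which they were tested. From 2.5 to 5 h, 9 members fell, against 17.0% of all genes, and 1, Snrpd2, was higher, against 4.47%. The 9 were Prpf4, Srsf4, Prpf3, Prpf38b, Sf3a2, Prpf38a, Sf3b4, Sf3a1 and Srsf2, with differences between -0.588 and -0.121. Of these 10 calls, those of Prpf4, Srsf4, Prpf3, Sf3a2 and Prpf38a held under all alternatives in which they were tested. The call of Sf3b4 was lost under 4 of 14 alternatives, among them the mean of its probe sets, where the difference was -0.056. The number called was 5 without the Mbnl1 or the Cugbp1 siRNA array at 2.5 h and 6 without the control siRNA array at 2.5 or at 5 h, and the call of Snrpd2 was lost under 7 of 15 alternatives. For either interval, the shares of all genes called with an array left out or without the filter are not given here. Prpf4 differed by -0.43 (SE 0.055, limma adjusted p = 0.000605) in the first interval and by -0.59 (SE 0.055, limma adjusted p = 0.000515) in the second.

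Under Mbnl1 siRNA many splicing factor mRNAs were slightly lower than under control siRNA, among them those of most SR and hnRNP proteins. Of the 66 members, 36 were lower and 1 higher, that is 54.5% and 1.52% of the members, against 31.0% lower and 24.0% higher among all 9864 genes. The steps were small, with a median of -0.133 over the members and -0.021 over all genes, and 59 members differed by less than 0.25. In 50 members the array under Mbnl1 siRNA was below its control siRNA counterpart at all 3 times, against 40.6% of all genes. The falls covered 7 of 9 SR genes, 12 of 17 hnRNP genes, all 3 PTB genes, 5 of 10 Snrp genes, 5 of 9 SF3 genes, 3 of 12 Prpf genes and 1 of 2 Tra2 genes. None of the 3 U2AF genes, nor Rbfox2, was called. Over the alternatives tried, between 25 and 40 members were lower, with 25 when the control siRNA array at 2.5 h was left out and 25 without the intensity filter. Apart from equal ribosomal protein medians, the shares of all genes under these alternatives are not given here. Of the 36 calls, 22 held under all alternatives in which they were tested. With equal ribosomal protein medians 31 were lower, against 27.6% of all genes, and Ptbp1, Srsf2, Hnrnph1, Prpf31 and Prpf4b lost their calls, which left 2 of 3 PTB, 6 of 9 SR, 11 of 17 hnRNP and 1 of 12 Prpf genes.

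Other features moved with Mbnl1 siRNA. The summed intensity of the 5 macrophage and leukocyte markers was between 897.7 and 1095 under Mbnl1 siRNA and between 499.5 and 570.1 under control siRNA, of which Cd68 held the most. The leukocyte and macrophage markers Ptprc and Adgre1 stayed at intensities of 47.4 to 52.6 and 37.1 to 44.7, below the filter on all arrays together. The 4 epithelial markers summed to between 806.7 and 918.9 under Mbnl1 siRNA and between 594.3 and 651.1 under control siRNA, and the 7 myoblast markers to between 29820 and 30320 under Mbnl1 siRNA and between 31940 and 32570 under control siRNA. That sum is mostly Vim and Des, and single markers moved more. Myod1, a myogenic transcription factor, read 1260, 906 and 629 at 0, 2.5 and 5 h under Mbnl1 siRNA and 1740, 1350 and 1020 under control siRNA, and Cdh15, the muscle cadherin, 1770, 1840 and 2030 under Mbnl1 siRNA and 2820, 2800 and 2820 under control siRNA. Both were lower under Mbnl1 siRNA at each time. Myf5, a further myoblast marker, was not: it read 1170, 741 and 488 under Mbnl1 siRNA and 1230, 727 and 471 under control siRNA. The part of these markers in the result was not tested. Celf1 itself also fell by 0.59 on the log2 scale under Mbnl1 siRNA.

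**Figure D3:**
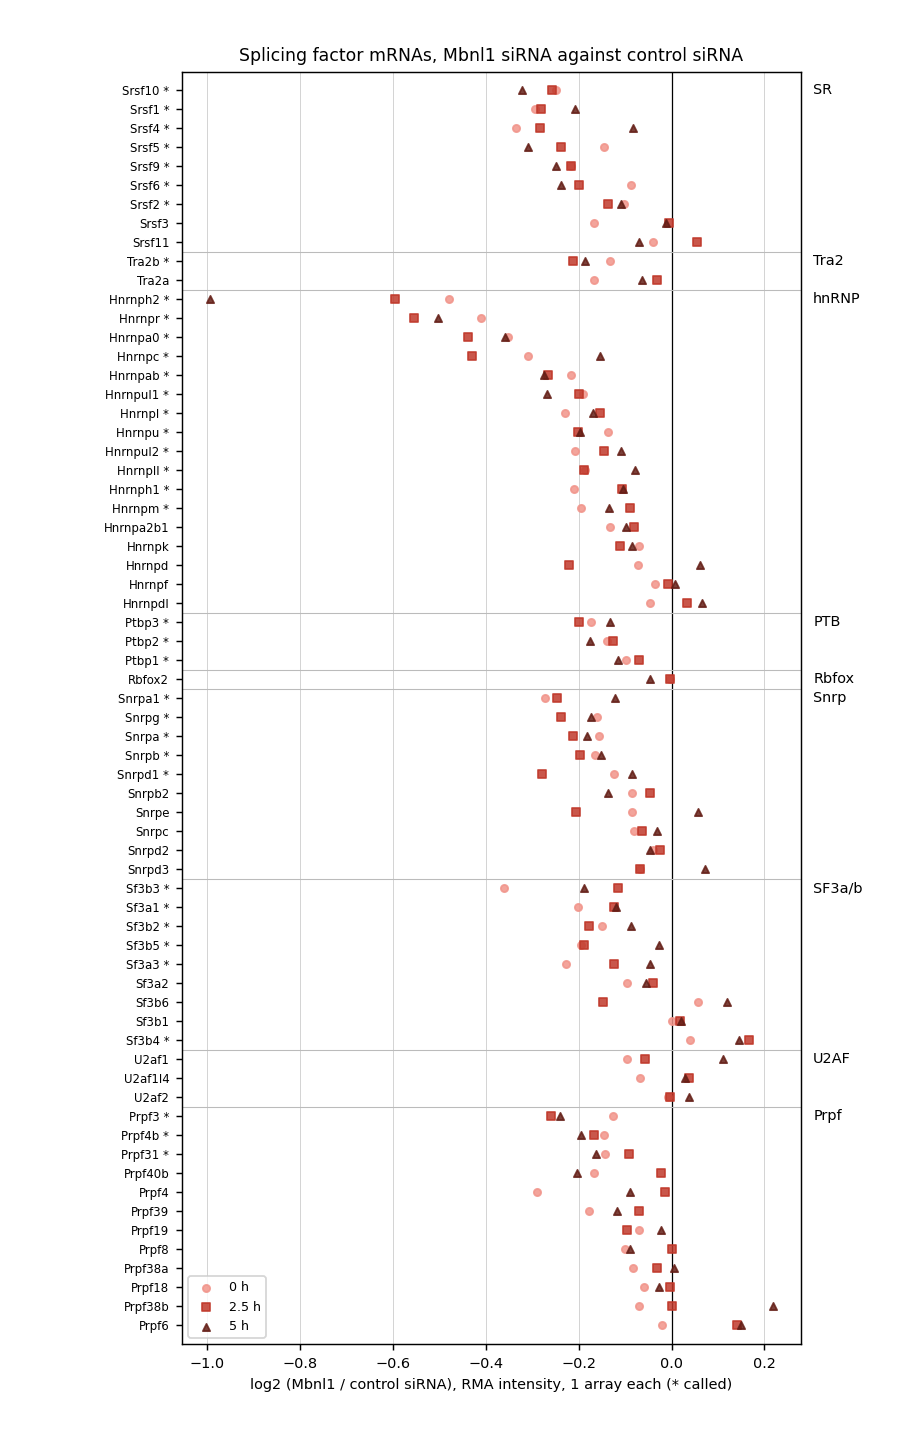
Log2 ratio of Mbnl1 siRNA to control siRNA (x axis) for the 66 splicing factor genes (y axis, by role), with 1 point for each time after actinomycin D and a star for genes called in the limma fit. Most points lie left of 0, with 50 genes left of it at all 3 times, and Hnrnph2 reaches the lowest value at 5 h.

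Because the 3 hnRNP genes Hnrnph2, Hnrnpr and Hnrnpa0 had the largest falls under Mbnl1 siRNA, their promoters are shown. Each line gives 250 bases upstream of the first start listed for the gene in RefSeq (GRCm38.p6), 5′ to 3′ on the strand of the gene, with CCAAT or its complement ATTGG in capitals. They lie at chrX:134600929-134601178 (plus strand), chr4:136310692-136310941 (plus strand) and chr13:58128557-58128806 (minus strand).
Hnrnph2: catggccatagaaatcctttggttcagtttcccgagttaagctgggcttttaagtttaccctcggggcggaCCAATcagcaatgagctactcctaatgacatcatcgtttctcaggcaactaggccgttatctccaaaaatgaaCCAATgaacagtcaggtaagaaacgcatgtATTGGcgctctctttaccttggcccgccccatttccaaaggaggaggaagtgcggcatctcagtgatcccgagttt
Hnrnpr: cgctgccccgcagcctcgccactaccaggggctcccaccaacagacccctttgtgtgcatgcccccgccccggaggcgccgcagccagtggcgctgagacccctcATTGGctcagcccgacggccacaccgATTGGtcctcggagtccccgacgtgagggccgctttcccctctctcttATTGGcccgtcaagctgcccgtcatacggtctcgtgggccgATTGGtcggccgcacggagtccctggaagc
Hnrnpa0: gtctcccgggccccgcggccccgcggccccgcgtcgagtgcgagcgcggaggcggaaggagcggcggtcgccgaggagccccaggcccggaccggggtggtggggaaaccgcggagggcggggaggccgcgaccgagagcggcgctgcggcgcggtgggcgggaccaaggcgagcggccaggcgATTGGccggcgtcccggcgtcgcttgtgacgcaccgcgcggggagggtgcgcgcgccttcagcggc
CCAAT on either strand, the core of the CCAAT box, occurs 3, 4 and 1 times in these windows, and the GC box GGGCGG, also on either strand, 2, 1 and 2 times. RefSeq promoters were matched by symbol for 56 of the 66 tested members. CCAAT was found in 26 of them, or 46.4%, against 34.5% of the 27025 promoters in the table, GGGCGG in 37, or 66.1%, against 32.9%, and the ETS core CCGGAAG in 16, or 28.6%, against 7.1%. None of these motifs contains another, and they were chosen after the sequences had been seen. The 27025 promoters were not limited to genes tested, while the matched members had all passed the intensity filter, so these shares compare unlike sets. Of the 30 matched members lower under Mbnl1 siRNA 15 held CCAAT, 21 GGGCGG and 8 CCGGAAG, and of the other 26 matched members 11, 16 and 8. A match describes these letters only.

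Hnrnph2, a G tract binder closely related to Hnrnph1, had intensities of 968, 925 and 719.7 at 0, 2.5 and 5 h under Mbnl1 siRNA, 1349, 1508 and 1516 under Cugbp1 siRNA, and 1350, 1397 and 1432 under control siRNA. The 3 arrays under Mbnl1 siRNA were below the 6 others, and they stood at 71.7%, 66.2% and 50.2% of control siRNA at 0, 2.5 and 5 h. The fitted difference between Mbnl1 and control siRNA was -0.69 (SE 0.102, limma adjusted p = 0.000764), the largest of the members, and a second probe set of the gene gave -0.70 against -0.69. The genes most like Hnrnph2 over the 9 arrays were Fam107b, Slc25a1, Tef, Ccdc88a and Sugt1, with Pearson's r between 0.9875 and 0.9946, again as a description over arrays that share their normalization and the Mbnl1 siRNA arm.

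Hnrnpr, an RNA-binding protein of the hnRNP family, read 352, 348 and 314 at 0, 2.5 and 5 h under Mbnl1 siRNA, 442, 488 and 523 under Cugbp1 siRNA, and 469, 511 and 445 under control siRNA. Its arrays under Mbnl1 siRNA were also below the 6 others, with a difference of -0.49 (SE 0.074, limma adjusted p = 0.000834). Hnrnpa0, which binds AU-rich elements and was singled out after its values were seen, gave 846, 795 and 912 at 0, 2.5 and 5 h under Mbnl1 siRNA, 1045, 1199 and 1219 under Cugbp1 siRNA, and 1081, 1077 and 1169 under control siRNA. Here too the groups did not overlap, and the difference was -0.38 (SE 0.054, limma adjusted p = 0.000596). For Hnrnph2, Hnrnpr and Hnrnpa0 the lack of overlap describes the values that gave the calls, and its share over all genes was not counted. Hnrnpc differed by -0.30 (SE 0.052, limma adjusted p = 0.00168), with its 3 arrays under Mbnl1 siRNA below its 3 under control siRNA. The other 8 called hnRNP genes differed by between -0.252 (Hnrnpab) and -0.139 (Hnrnpm). Hnrnpa2b1, Hnrnpk, Hnrnpd, Hnrnpf and Hnrnpdl were not called. Hnrnpm, a binder of GU-rich sequences, read 2509, 2651 and 2540 at 0, 2.5 and 5 h under Mbnl1 siRNA, 3050, 3166 and 3206 under Cugbp1 siRNA, and 2870, 2821 and 2789 under control siRNA, with the arrays under Mbnl1 siRNA lowest at each time.

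**Figure D4:**
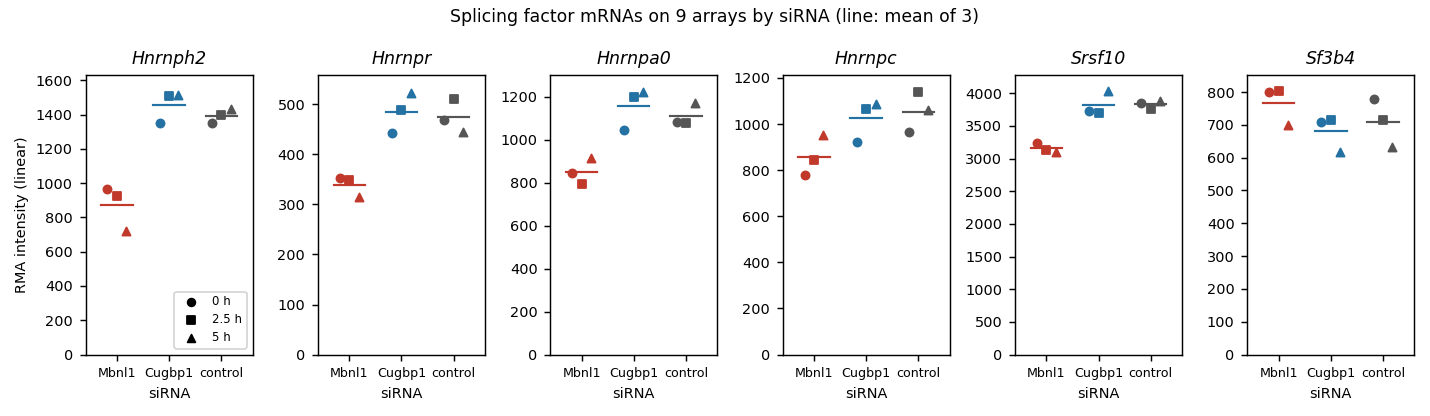
RMA intensity (y axis, linear, from 0) of 6 splicing factor genes on the 9 arrays, by siRNA (x axis), with a marker for each time and a line for the mean of the 3 arrays of an siRNA. For Hnrnph2, Hnrnpr, Hnrnpa0 and Srsf10 the 3 arrays under Mbnl1 siRNA lie below all 6 others; Sf3b4 is the only member called higher under Mbnl1 siRNA.

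Among SR proteins the fall under Mbnl1 siRNA was largest for Srsf10, with a difference of -0.28 (SE 0.042, limma adjusted p = 0.000875), and Srsf1 followed with -0.26 (SE 0.039, limma adjusted p = 0.000769). For both genes, and for Srsf9, all 3 arrays under Mbnl1 siRNA were below the 6 arrays of the other arms. That order comes from the values that gave the calls, and its share over all genes was not counted. Srsf9 differed by -0.23 (SE 0.038, limma adjusted p = 0.00151). Srsf4, Srsf5, Srsf6 and Srsf2 differed by -0.23, -0.23, -0.18 and -0.12, and the calls of Srsf6 and Srsf2 were lost under 5 and 6 of 15 alternatives. The 2 SR genes that were not called were Srsf3, at -0.062, and Srsf11, at -0.018 with overlapping arms. In the brightest probe set of Srsf3 the 3 arrays under Mbnl1 siRNA were below the 6 others, an order whose share over all genes was not counted. Its dimmer probe sets did not show that order, and its 3 probe sets had mean differences between -0.162 and -0.051. Of the Tra2 genes, Tra2b differed by -0.18 (SE 0.035, limma adjusted p = 0.00334), and Tra2a, at -0.088, was not called against control siRNA. The dimmer probe set of Tra2b had a mean difference of -0.055.

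The PTB genes were lower by small amounts. Ptbp3 differed by -0.17 (SE 0.035, limma adjusted p = 0.00405), Ptbp2 by -0.15 and Ptbp1 by -0.095, and the second probe set of Ptbp1 gave -0.26. The call of Ptbp1 was lost under 11 of 15 alternatives, with adjusted p between 0.002 and 0.156 in limma. At each time each of the 3 genes read lower under Mbnl1 siRNA than under control siRNA. In the snRNPs, Snrpa1 and Snrpg differed most, by -0.21 (SE 0.050, limma adjusted p = 0.00723) and by -0.19 (SE 0.037, limma adjusted p = 0.00289), with Snrpa, Snrpb and Snrpd1 between -0.184 and -0.162. Snrpd2 and Snrpe, the Sm genes with the largest relative rises at 5 h, were not called.

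Of the SF3 genes, Sf3b3 differed by -0.22 (SE 0.054, limma adjusted p = 0.00886), and its array under Mbnl1 siRNA was lowest at each time. Sf3a1, Sf3b2, Sf3b5 and Sf3a3 differed by -0.148 to -0.133, and their calls were lost under 1, 2, 6 and 8 of 15 alternatives. Sf3b4 was the only member higher under Mbnl1 siRNA, by 0.12 (SE 0.040, limma adjusted p = 0.0366), and lost that call under 9 of 14 alternatives, among them equal ribosomal protein medians, no intensity filter, the mean of its 2 probe sets and 6 of the 9 arrays left out in turn; it did not pass the stricter filter. Prpf3 differed by -0.21 (SE 0.046, limma adjusted p = 0.00565), Prpf4b, a kinase of the tri-snRNP, by -0.17 (SE 0.054, limma adjusted p = 0.029), and Prpf31, a U4 protein, by -0.13. Prpf4b had intensities of 767, 759.5 and 672 at 0, 2.5 and 5 h under Mbnl1 siRNA, 799, 852 and 847 under Cugbp1 siRNA, and 848, 852 and 769 under control siRNA, with the Mbnl1 siRNA array the lowest at each time. The calls of Prpf4b and Prpf31 were each lost under 7 of 15 alternatives. Prpf4, with the largest fall after actinomycin D, differed by -0.131 with an adjusted p of 0.0772 in limma.

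Against Cugbp1 siRNA the picture under Mbnl1 siRNA was similar in count, and the 2 contrasts share the Mbnl1 siRNA arrays. Of the 66 members 39 were lower and 2 higher, against 33.4% and 23.0% of all genes. Hnrnph2 differed by -0.75 (SE 0.102, limma adjusted p = 0.000475), Hnrnpr by -0.52 (SE 0.074, limma adjusted p = 0.000629), and Hnrnpa0 by -0.44 (SE 0.054, limma adjusted p = 0.000291). Srsf4 differed by -0.36 and Prpf40b by -0.30, the next in size. Sf3b4 and U2af1l4 were higher under Mbnl1 siRNA than under Cugbp1 siRNA, each by 0.17.

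Cugbp1 siRNA left the splicing factor mRNAs nearly as they were under control siRNA. Of the 66 members 3 were higher and 2 lower, against 10.5% higher and 8.67% lower among all genes, the median difference was 0.016 against 0.011, and all 66 members, against 91.7% of all genes, differed by less than 0.25. In 8 members the array under Cugbp1 siRNA was below that under control siRNA at all 3 times, against 24.6% of all genes. U2af1 was higher by 0.21 (SE 0.050, limma adjusted p = 0.0248), and stood at 107.7%, 113.8% and 125.9% of control siRNA at 0, 2.5 and 5 h. Hnrnpm was higher by 0.15 (SE 0.038, limma adjusted p = 0.0299), and Prpf19 by 0.14 (SE 0.034, limma adjusted p = 0.0251). For these 3 genes all 3 arrays under Cugbp1 siRNA were above all 3 under control siRNA. The same values gave their calls, so this order adds no support, and its share over all genes was not counted.

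Prpf19 had intensities of 1889, 1983 and 2042 at 0, 2.5 and 5 h under Mbnl1 siRNA, 2162, 2332 and 2329 under Cugbp1 siRNA, and 1985, 2118 and 2075 under control siRNA. The lower genes were U2af1l4, by -0.17 (SE 0.040, limma adjusted p = 0.0232), and Ptbp3, by -0.13 (SE 0.035, limma adjusted p = 0.0397), both below control siRNA at each time. These calls depended on single arrays and on the filter. None of the 66 members was called when the control siRNA array at 2.5 h or at 5 h or the Cugbp1 siRNA array at 2.5 h was left out, or without the intensity filter. With equal ribosomal protein medians 2 were called, against 5.29% higher and 7.22% lower among all genes. The shares of all genes called with an array left out or without the filter are not given here. The summed intensity of the 5 adipocyte markers was between 1007 and 1106 under Cugbp1 siRNA and between 880.5 and 909.2 under control siRNA, with Lpl the only one of them above the filter, and its part in the result was not tested.

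**Figure D5:**
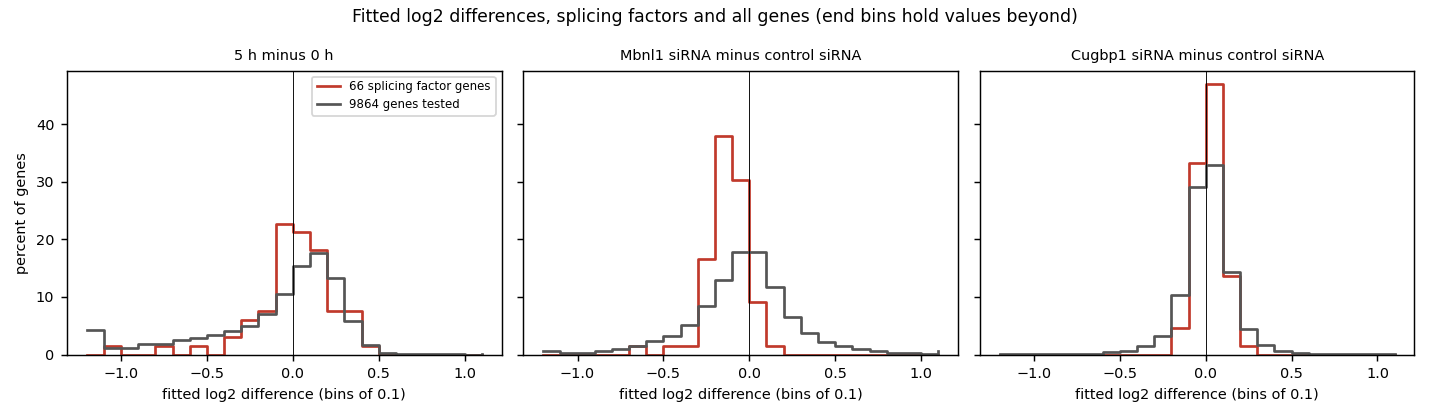
Percent of genes (y axis) by fitted log2 difference in bins of 0.1 (x axis), for the 66 splicing factor genes and the 9864 genes tested, in 3 contrasts, with the end bins holding all values beyond. The members' curve is narrower than that of all genes in each panel, and under Mbnl1 siRNA it is centred below 0, with a median of -0.133 against -0.021.

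Whether a knockdown changed the rate of loss was tested as a difference in log2 change per hour, from a fit in which each siRNA has its own linear trend on top of the shared time course. No member was called in either contrast, and among all genes 0.0% were called under Cugbp1 siRNA and 0.0203% under Mbnl1 siRNA. Without adjustment 9 members (13.6%) had p under 0.05 in the contrast of Cugbp1 with control siRNA, against 11.4% of all genes, and 4 (6.06%) in that of Mbnl1 with control siRNA, against 13.8%. Under Cugbp1 siRNA the strongest were Prpf39, with 0.065 per hour (SE 0.017, limma adjusted p = 0.34), Hnrnpr, with 0.063 per hour (SE 0.020, limma adjusted p = 0.372), and Prpf38b, with 0.054 per hour (SE 0.017, limma adjusted p = 0.372), all slower in loss or larger in relative rise than under control siRNA. Prpf39 stood at 137.6% and 147.2% of its 0 h array at 2.5 and 5 h under Cugbp1 siRNA, and at 117.7% and 117.7% under control siRNA.

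Under Mbnl1 siRNA Hnrnph2 had the largest slope difference, -0.10 per hour (SE 0.020, limma adjusted p = 0.121). Its arrays stood at 95.6% and 74.3% of the 0 h array at 2.5 and 5 h under Mbnl1 siRNA, at 111.8% and 112.4% under Cugbp1 siRNA and at 103.5% and 106.1% under control siRNA. It passed the threshold under 4 of the alternatives: with equal ribosomal protein medians (adjusted p = 0.0305 in limma), with the filter at the 75th percentile (0.0382), with an intensity trend and robust prior (0.021) and without the Mbnl1 siRNA array at 2.5 h (0.037). With equal ribosomal protein medians 2.88% of all genes were called lower in this contrast and 0.112% higher. The shares of all genes called under the other alternatives are not given here. Prpf38b and Srsf4 followed, with 0.057 per hour (SE 0.017, limma adjusted p = 0.229) and 0.050 per hour (SE 0.019, limma adjusted p = 0.309), both with a slower relative loss than under control siRNA.

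The rest of the splicing machinery was read from 4 lists of genes outside these symbols, except that Prpf4b is also among the kinases. Of 14 tested snRNP and Lsm genes, 7 were higher and 3 lower at 5 h, and Lsm8, of the U6 ring, fell by 1.31 and Lsm11, of the U7 snRNP, fell by 0.84. Of 38 other spliceosome components, 10 were higher and 16 lower, where Cwc22, which links splicing to the exon junction complex, fell by 1.51 and the helicase Dhx8 fell by 0.88. Of 9 tested kinases and related regulators of SR proteins, 1 was higher and 4 lower, and Dyrk1a and Clk1, kinases that phosphorylate SR proteins, fell by 1.29 and fell by 1.08. Of 39 other splicing regulators, 12 were higher and 9 lower, where Rbm5 fell by 1.07 and Rbm4b fell by 0.80, both RNA-binding regulators of exon choice. These counts stand beside 35.6% higher and 32.8% lower among all genes.

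Under Mbnl1 siRNA, where 24.0% of all genes were higher and 31.0% lower, the same lists held 1 higher and 8 lower of 14 snRNP and Lsm genes, with Lsm8 and Lsm3 at -0.595 and -0.265, and 6 higher and 8 lower of 38 other spliceosome components, with the helicase Ddx46 and the cyclophilin Ppih at -0.52 and -0.49. The 9 kinases and related regulators held 2 higher and 4 lower, with Clk4 at 0.33 and Dyrk1a at -0.28. The 39 other regulators held 3 higher and 18 lower, with Mbnl1 and Celf1 among those lower. Under Cugbp1 siRNA, against 10.5% higher and 8.67% lower among all genes, 1 of the snRNP and Lsm genes was higher, Lsm7 at 0.33, and none lower. Of the other spliceosome components Snw1, a core protein, was higher at 0.25 and Phf5a, an SF3b subunit, lower at -0.28. None of the kinases was called, and of the other regulators 3 were higher, with Khdrbs3, an RNA-binding protein of the STAR family, at 0.41, and 1, Celf1, was lower.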

How the data were processed

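Total RNA from 9 combinations of siRNA and time was labelled with biotin and hybridised to 1 array each, per the labels' protocols. The deposited intensity table comes from Affymetrix Expression Console and its RMA method, per the submitters' processing notes; software versions and build: not given in the sources used here. RMA holds the distribution of each array nearly equal, so that a general loss of mRNA after actinomycin D is not seen. The values are on a linear scale, as read from their range, and log2 was taken here.

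Genes were named through GEO's platform annotation: 21789 probe sets have 1 symbol, 1621 several and 12146 none. For each gene the probe set with the highest mean was used, and genes with a mean log2 of at least 7.3848 (the 50th percentile) were kept. The lmFit and eBayes steps of limma 3.58.1 (R 4.3.3) were run on all 9864 genes with siRNA and time as factors (4 residual degrees of freedom). The slope fit adds a line in hours per siRNA (2 residual degrees of freedom). Adjustment was by Benjamini-Hochberg over all genes of a contrast. The fits were tested on simulated data. Promoters come from RefSeq (GRCm38.p6).

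The members and lists were chosen with earlier results of these data known. Values by array are given for up to 2 largest called rises and falls per role and contrast that go the same way in each pair of arrays, all tested Srsf and Tra2 genes, Ptbp1, Ptbp2, Rbfox2, Hnrnpa2b1 and the 3 members with the highest moderated t per slope contrast. The rule also names Hnrnpa1, which no single-symbol probe set represents. Other lists give their 2 largest called changes.

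Alternatives were equal ribosomal protein medians, quantile normalization, no filter, a filter at the 75th percentile, the mean of a gene's probe sets, an intensity trend with robust prior, and leaving out each array.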

Additional observations from a re-analysis of the deposited data

How the results depend on the processing

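Setting the arrays to equal ribosomal protein medians changed the most: 3 members were higher and 13 lower at 2.5 h (2.41% and 32.8% of all genes), 3 higher and 44 lower at 5 h (2.85% and 59.4%), and 29 were called, all lower, between 2.5 and 5 h (39.9% lower). Under Cugbp1 siRNA 2 were called (5.29% of all genes higher and 7.22% lower), and under Mbnl1 siRNA 0 were higher (21.6%). In the slope contrast of Mbnl1 siRNA 1 member, Hnrnph2, was called lower (2.88%). The cause of each of these changes was not tested. The scaling shifted the differences of all genes by -0.234 at 5 h and by 0.001 for Mbnl1 against control siRNA. Among the results named by the rule, it turned the 5 h differences of Hnrnpc (-0.014), Hnrnph1 (-0.044), Ptbp2 (-0.045), Sf3b6 (-0.024), Srsf11 (-0.083), Srsf9 (-0.092) and Tra2a (-0.035) and the 2.5 h difference of Ptbp3 (-0.008). Without the intensity filter 8 members were higher at 2.5 h, 6 called between 2.5 and 5 h, 0 under Cugbp1 siRNA and 0 higher under Mbnl1 siRNA; more genes are then tested. A second quantile normalization gave 2 higher under Mbnl1 siRNA, the filter at the 75th percentile 0, with 1 slope call, and the mean of a gene's probe sets 0. An intensity trend with robust prior gave 8 calls under Cugbp1 siRNA and 1 slope call. The cause of these was not tested. Leaving out 1 array gave 7 to 15 higher and 3 to 6 lower at 2.5 h, 5 to 11 calls between 2.5 and 5 h, 0 to 6 under Cugbp1 siRNA, 0 to 2 higher under Mbnl1 siRNA and 0 to 1 slope call under Mbnl1 siRNA. Apart from equal ribosomal protein medians, the shares of all genes called under the alternatives are not given here. The counts higher and lower at 5 h, lower under Mbnl1 siRNA, called between Mbnl1 and Cugbp1 siRNA, and in the slope contrast of Cugbp1 siRNA stayed within 1.5 times under all alternatives, apart from the 5 h counts with equal ribosomal protein medians. Of 1271 combinations of 86 named results with an alternative, 1097 kept their direction and side of the threshold, 162 lost a call, 4 gained one and 8 reversed. Precision is limited by how few arrays there are. The fit compares siRNAs within each time and times within each siRNA arm, and the labels give no further number that would tie arrays together.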

Other observations

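The 18 probe sets with several symbols, 1 of them matching a splicing factor, cannot be assigned to a gene and entered no test. Their mean log2 difference at 5 h against 0 h was between 0.05 and 0.50 with a median of 0.16. In all 3 arms 14 were higher and 0 lower, against 36.1% of all genes lower in all 3 arms. The share of all genes higher in all 3 arms was not counted. Between Mbnl1 and control siRNA their mean difference was between -0.24 and 0.31 with a median of -0.18. At all 3 times 15 were lower, against 40.6% of all genes. Their mean differences were set beside no test. Between Cugbp1 and control siRNA the mean difference was between -0.11 and 0.12 with a median of -0.03.

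Snrpc, a protein of the U1 snRNP, was read by 3 probe sets, with mean differences between 0.29 and 0.52 at 5 h against 0 h, and between -0.061 and -0.031 for Mbnl1 against control siRNA. The 4 probe sets of Hnrnpf, a further G tract binder, lay between -0.040 and 0.006 at 5 h.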
